A study of Mus musculus with 6 samples.

Results

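Chemokines and chemokine receptors were followed in muscle stem cells (MuSCs) from injured mouse muscle. The genes were taken by symbol, as all Ccl, Cxcl, Cx3cl1, and Xcl1 ligands and all Ccr, Cxcr, Cx3cr1, Xcr1, and Ackr receptors, which gave 69 gene identifiers with 63 symbols among the 49671 in the deposited tables. Chemokines are small secreted proteins that direct the migration of leukocytes and of stem cells along concentration gradients, and they are grouped as CC, CXC, CX3C, and XC ligands by the spacing of their first cysteines. Their receptors are G protein-coupled receptors, whereas the atypical receptors bind and internalize chemokines without coupling to G proteins. In injured muscle, CC and CXC ligands draw neutrophils and monocytes into the tissue, and CXCL12 acts through CXCR4 on myogenic cells as well as on leukocytes.

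RNA-Seq was performed on MuSCs of 6 female C57BL/6 mice aged 4 to 6 months, with 1 library for each mouse. All mice had 50 μL of 1.2% BaCl2, which damages myofibers, injected into both TA muscles, and the 2 muscles of a mouse were pooled at day 3. A group of 3 mice received resolvin D1 (RvD1), a lipid mediator made from docosahexaenoic acid that promotes the resolution of inflammation, at 100 ng per day by IP injection for 72 hours, and a group of 3 mice received the vehicle, 0.1% ethanol. The sort kept cells with β1-integrin and CXCR4 on their surface and discarded those with CD45, CD11b, Sca-1, or Ter119, so CXCR4 protein was itself used to choose the cells, and no uninjured cells were part of the comparison.

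Total expected counts ranged from 16148026 to 28149176 per library, at which 3 counts equal 0.107 to 0.186 CPM (counts scaled by the size of the library), a limit that covers counting error only. All 11 muscle stem cell and myoblast markers found in the tables had counts, with a summed level of 5884 to 6760 CPM with RvD1 and 5791 to 6396 CPM with vehicle. RvD1 replicate 1 stood apart from the other libraries. Its counts differed from theirs by a chi-square of 27.2 to 58.7 per gene, against 6.39 to 16.1 among the other 5 libraries, and its 10 fibro-adipogenic markers summed to 2150 CPM, against 900 to 1379 CPM elsewhere. Counts over the groups of genes below are therefore also given without this library where it changed them. The 18 macrophage and monocyte markers, whose cells the sort was meant to remove, all had counts and summed to 61.1, 40.4, and 40.9 CPM with RvD1 and 78.6, 55.9, and 92.9 CPM with vehicle.

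Only a few of these genes were expressed at more than a trace. Mean expected counts were 10 or more for 24 identifiers, above 0 but below 10 for 30, and 0 in every library for 8, namely Ccl1, Ccl20, Ccl26, Ccr6, Ccr8, Cxcl15, Cxcr1, and Cxcr3. The other 7 identifiers, which are copies of Ccl19, Ccl21a, Ccl21b, Ccl21c, and Ccl27a, are written as a bare 0 in every library in the same way as 382 identifiers that include the mitochondrial genes, and they appear not to have been estimated. Ccl5 and Ccl12 lay just above the division with means of 10.7 and 11 counts, and Ccl4 and Xcr1 lay just below it with 9.83 and 9.67 counts. Between 38 and 45 of the 69 identifiers had a count in a given library.

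Expression was concentrated in a handful of transcripts. Ackr3, Cxcl12, and Cxcl1 together held 61.8% of the counts of all these genes, and the share was 79.6% with Cxcl10 and Cxcr4 and 90.8% with Ccl25, Ccl2, Cx3cl1, and Ccl7. In TPM, which accounts for transcript length and so allows different genes to be compared, the order by mean level was Cxcl1 (77.5 TPM), Cxcl10 (38.0 TPM), Cxcl12 (36.4 TPM), Ackr3 (34.9 TPM), Cxcr4 (22.2 TPM), Ccl2 (18.1 TPM), and Ccl25 (12.8 TPM). The levels of Cxcl10, Cxcl12, and Ackr3 lay within the spread of Cxcl10 between mice, which was at 38.5 ± 11.5 TPM in RvD1-treated and 37.4 ± 7.90 TPM in vehicle-treated mice (SD, n = 3 each). All genes of the set together summed to 311, 258, and 248 CPM in the RvD1 libraries and 248, 251, and 254 CPM in the vehicle libraries. The highest sum was that of RvD1 replicate 1, and the other 5 libraries lay close together.

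**Figure D1:**
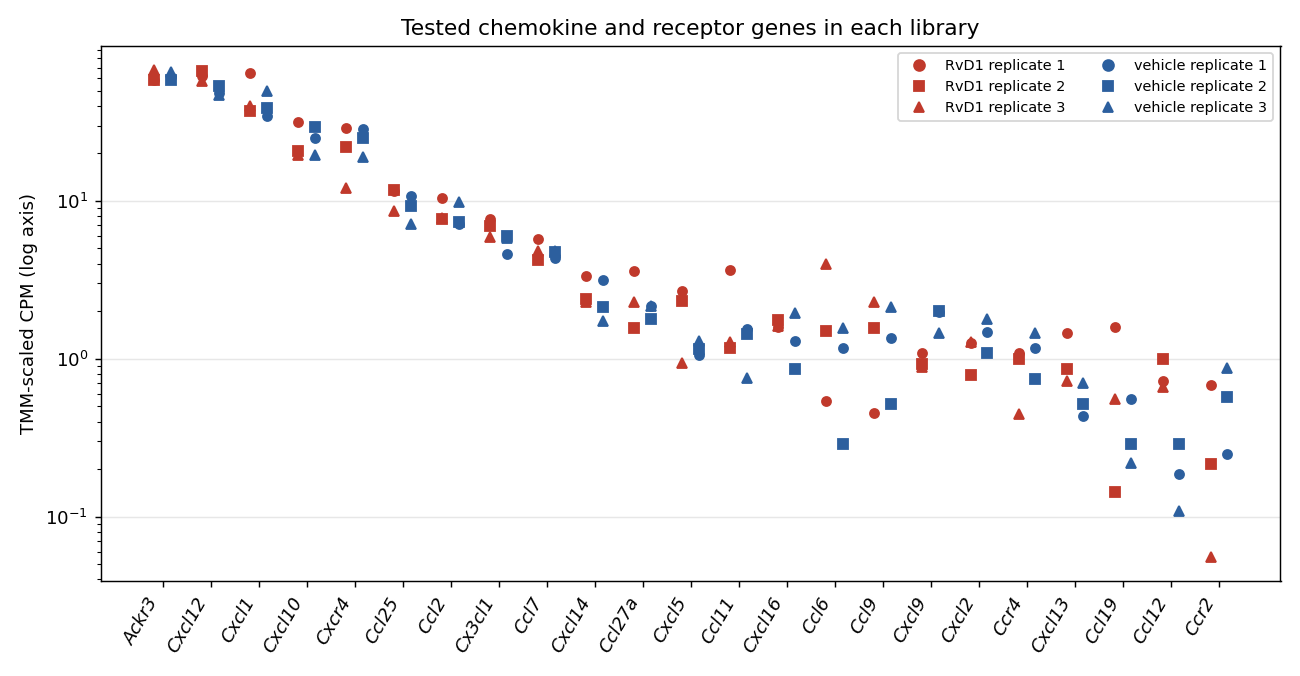
Normalized level of each of the 23 tested genes in each of the 6 libraries, in CPM on a log axis, with RvD1 and vehicle libraries as separate symbols. Levels run from 67.3 CPM for Ackr3 in RvD1 replicate 3 down to 0.055 CPM for Ccr2 in RvD1 replicate 3, and for most genes the symbols of the groups are mixed.

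RvD1-treated and vehicle-treated mice were compared gene by gene with edgeR's quasi-likelihood test, fitted over the 14494 genes with enough counts, of which 23 belong to this set. None of the 23 genes passed an adjusted p of 0.05, nor did any other gene (0% of all genes tested), and the smallest adjusted p (Benjamini-Hochberg) among the 23 was 0.971. At an unadjusted p under 0.05 there were 3 of the 23, against 3.47% of all genes tested. These were Ccl12 and Cxcl12, which were higher with RvD1 (1.83% of all genes), and Cxcl9, which was lower (1.64% of all genes). Leaving out RvD1 replicate 1 moved this count to 5, where 4.33% of all genes had such a p and Ccl6 and Ccr2 joined the 3. Ccr2 had enough counts in that fit only through vehicle libraries, the group in which it was higher. Without vehicle replicate 1 the count was 1, Ccl12. DESeq2 called 0 of the 23 by adjusted p and the same 3 by unadjusted p.

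The log2 fold change of RvD1 over vehicle was above 0 for 16 of the 23 genes, against 53.5% of all genes tested, and its median was 0.20 against 0.01 for all genes. Without RvD1 replicate 1 the split was 12 higher and 11 lower among the 23 genes that then had enough counts, against 50.3% of all genes higher, and the median was 0.0016. On the log2(TPM + 1) scale 18 of the 23 were higher, and so were 67.9% of all genes. RvD1 and vehicle libraries did not overlap in CPM for 4 of the 23 genes, with Ccl12, Cxcl12, and Cxcl13 higher and Cxcl9 lower with RvD1, against 9.62% of all genes tested, of which 4.8% were higher and 4.83% lower. Without RvD1 replicate 1, Ccr2 joined these 4 genes without overlap, for 5 of 23 against 20% of all genes. An absolute log2 fold change above 1 was found for Ccl12 and Ccl19 with all 6 libraries, against 1.6% of all genes. Ccl12 reached the minimum count for testing in the 3 RvD1 libraries and in 0 of the vehicle libraries, and Cxcl13 in 3 and 1, so their place among the tested genes depended on the group in which they were higher. Ccr2 reached it in 1 RvD1 library, replicate 1, and in 2 vehicle libraries. Without that RvD1 library its place rested on the vehicle group, in which it was higher.

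**Figure D2:**
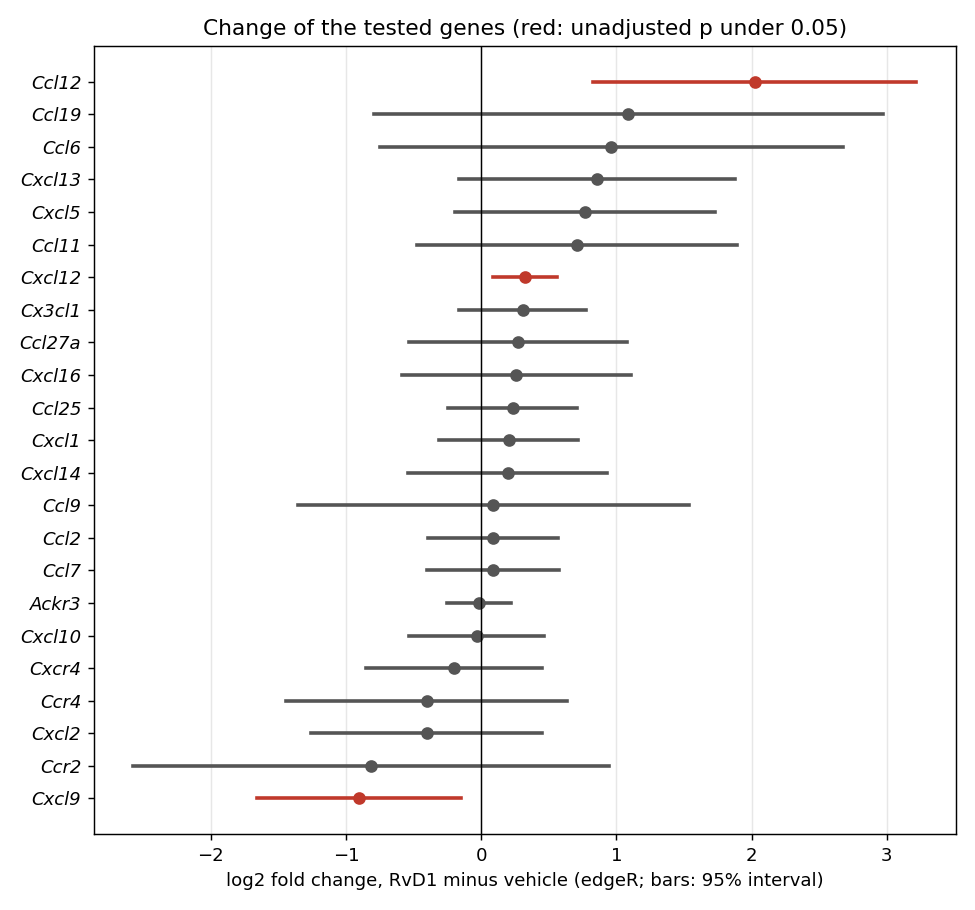
Log2 fold change of RvD1 over vehicle for the 23 tested genes from edgeR, with its 95% confidence interval as a bar and a line at 0. The genes with an unadjusted p under 0.05, drawn in red, are Ccl12, Cxcl12, and Cxcl9, and the intervals of the other 20 genes include 0.

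The 250 bases before the annotated start are shown for Cxcl12, Cxcl1, Cxcl10, Cxcl9, and Ccl12, which are the 3 most abundant ligands and the 3 genes with an unadjusted p under 0.05. They are RefSeq promoter windows on GRCm38.p6, printed 5′ to 3′ on the strand of the gene. They were searched for the NF-κB motif, the interferon-stimulated element (GAAA, any 2 bases, GAAA), and the STAT site TTCNNNGAA on both strands and for TATAAA on the gene's strand, and matches are in capitals. Cxcl12 lies at chr6:117168285-117168534 (+), Cxcl1 at chr5:90890995-90891244 (+), Cxcl10 at chr5:92348890-92349139 (-), Cxcl9 at chr5:92328080-92328329 (-), and Ccl12 at chr11:82101595-82101844 (+).
Cxcl12: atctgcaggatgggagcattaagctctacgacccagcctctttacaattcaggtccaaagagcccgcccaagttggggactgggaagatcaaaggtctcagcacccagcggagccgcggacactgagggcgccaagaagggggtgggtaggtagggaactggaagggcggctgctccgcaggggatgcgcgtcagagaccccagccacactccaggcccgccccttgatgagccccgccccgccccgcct
Cxcl1: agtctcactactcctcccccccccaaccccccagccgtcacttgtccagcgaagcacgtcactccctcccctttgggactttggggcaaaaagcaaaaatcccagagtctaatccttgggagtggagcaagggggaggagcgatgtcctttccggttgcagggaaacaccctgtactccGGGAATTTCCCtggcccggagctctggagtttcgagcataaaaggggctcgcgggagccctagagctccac
Cxcl10: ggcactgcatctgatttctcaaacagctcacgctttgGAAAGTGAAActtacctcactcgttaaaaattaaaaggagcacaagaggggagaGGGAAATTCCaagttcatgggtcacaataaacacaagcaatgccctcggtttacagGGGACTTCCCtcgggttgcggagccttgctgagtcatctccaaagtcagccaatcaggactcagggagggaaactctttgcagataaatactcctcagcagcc
Cxcl9: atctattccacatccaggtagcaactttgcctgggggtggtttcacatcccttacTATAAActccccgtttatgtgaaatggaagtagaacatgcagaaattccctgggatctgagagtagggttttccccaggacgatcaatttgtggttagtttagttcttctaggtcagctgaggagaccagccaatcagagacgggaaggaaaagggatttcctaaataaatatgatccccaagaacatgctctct
Ccl12: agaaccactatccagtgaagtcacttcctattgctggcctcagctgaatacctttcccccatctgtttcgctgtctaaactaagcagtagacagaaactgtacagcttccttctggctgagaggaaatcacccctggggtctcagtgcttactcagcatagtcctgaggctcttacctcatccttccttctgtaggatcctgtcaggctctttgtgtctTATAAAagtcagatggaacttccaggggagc

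Cxcl10 held an NF-κB match 159 to 150 bases and another 103 to 94 bases before its start, and an interferon-stimulated element 213 to 204 bases before it. In Cxcl1 the capitals 71 to 61 bases before the start are 2 overlapping NF-κB matches on opposite strands. TATAAA lay 31 to 26 bases before the start of Ccl12 and 195 to 190 bases before that of Cxcl9, and the Cxcl12 window held none of these motifs. Of 32851 such windows in the genome, 3.9% held the NF-κB motif, 2.98% the interferon-stimulated element, 7.02% the STAT site, and 7.59% TATAAA. The matches describe letters in these windows and no binding was measured.

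Cxcl12, which encodes the homeostatic ligand of CXCR4 and of the scavenging receptor ACKR3, was the ligand with the most counts. Its gene lies on chromosome 6 at 117168535 to 117181367 (GRCm38). It was at 61.6, 66.7, and 57.4 CPM in RvD1 replicates 1, 2, and 3 and at 48.3, 53.2, and 47.2 CPM in vehicle replicates 1, 2, and 3. All 3 RvD1 libraries were above all 3 vehicle libraries. The log2 fold change was 0.32 with a SE of 0.10 and a 95% interval of 0.08 to 0.56, and its unadjusted p in edgeR's quasi-likelihood test was 0.0136 (adjusted p 0.971). It ranged from 0.26 to 0.37 when a library was left out in turn, with unadjusted p from 0.0105 to 0.0550. The mean TPM of Cxcl12 was 41.6 ± 3.64 in the 3 RvD1-treated and 31.3 ± 1.89 in the 3 vehicle-treated mice (SD).

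For the receptors of Cxcl12 the groups overlapped, and whether their fold changes differ from that of Cxcl12 was not tested. Ackr3, on chromosome 1 at 90203980 to 90216751, was at 58.3, 58.6, and 67.3 CPM with RvD1 and 61.1, 58.9, and 66.1 CPM with vehicle. The ranges overlapped almost fully, and the log2 fold change was −0.02 with a 95% interval of −0.25 to 0.22. Cxcr4, on chromosome 1 at 128588199 to 128592293, was at 29.0, 21.9, and 12.1 CPM with RvD1 and 28.7, 24.9, and 19.1 CPM with vehicle. Its level in RvD1 replicate 3 was below that of every other library, and the log2 fold change of −0.20 had a 95% interval of −0.85 to 0.45. Because the cells were gated on CXCR4 protein on their surface, the presence of the transcript is not a finding.

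Of the other constitutive CXC ligands, Cxcl13, the B cell attractant, was at 1.45, 0.856, and 0.721 CPM with RvD1 and 0.434, 0.517, and 0.706 CPM with vehicle. The groups did not overlap, but the lowest RvD1 and the highest vehicle library each held 13 counts. Its log2 fold change was 0.86 with a 95% interval of −0.16 to 1.88, and it was 0.51 without RvD1 replicate 1. Cxcl14, which is made by epithelial and stromal cells, differed by 0.19 on the log2 scale with a SE of 0.32.

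The neutrophil-attracting CXC ligands, which act through CXCR2, were led by Cxcl1, the ligand with the highest TPM in these libraries. Cxcl1 was at 65.1, 37.2, and 39.8 CPM with RvD1 and at 34.3, 38.8, and 50.01 CPM with vehicle. RvD1 replicate 1 was the highest library and vehicle replicate 3 the next, so the groups overlapped. Cxcl1 thus had a log2 fold change of 0.20 with a 95% interval of −0.31 to 0.72, and −0.09 without RvD1 replicate 1. Cxcl5 was at 2.67, 2.32, and 0.943 CPM with RvD1 and 1.05, 1.15, and 1.30 CPM with vehicle. It was above every vehicle library in 2 of the RvD1 libraries and below them all in the third, with a log2 fold change of 0.77 and a 95% interval of −0.20 to 1.73. That fold change was 1.09 without RvD1 replicate 3 and 0.50 without RvD1 replicate 1. Cxcl2 differed by −0.40 with a SE of 0.38, and Cxcl3 had at most 7 counts in any library.

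Cxcl9 and Cxcl10 encode interferon-inducible ligands of CXCR3, a receptor of T cells and NK cells. They lie next to each other on chromosome 5, Cxcl9 at 92321347 to 92328079 and Cxcl10 at 92346638 to 92348889, both on the minus strand. Cxcl9 had 24, 26, and 16 counts with RvD1 and 32, 35, and 27 counts with vehicle, which is 1.09, 0.928, and 0.888 CPM against 1.98, 2.01, and 1.47 CPM. Each RvD1 library was below each vehicle library. The log2 fold change was −0.90 with a SE of 0.33 and a 95% interval of −1.66 to −0.15, and the unadjusted p of edgeR's quasi-likelihood test was 0.0238 (adjusted p 0.971). With 1 library left out in turn the fold change lay between −1.04 and −0.83 and the unadjusted p between 0.0248 and 0.0812, and it was above 0.05 in 4 of the 6 fits. In TPM the groups overlapped, with means of 1.12 ± 0.284 in RvD1-treated and 1.54 ± 0.600 in vehicle-treated mice (SD, n of 3 each), and on the log2(TPM + 1) scale the difference was −0.24 with an unadjusted p of 0.275 in limma's test.

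Cxcl10, which shares its receptor with Cxcl9, was far more abundant and its groups overlapped. It was at 31.8, 20.7, and 19.6 CPM with RvD1 and 24.9, 29.5, and 19.4 CPM with vehicle. The lowest library of each group had nearly the same level, and the log2 fold change was −0.03 with a 95% interval of −0.53 to 0.46. Cxcl11, which is grouped with these ligands but annotated as a polymorphic pseudogene, had 2 counts in vehicle replicate 2 and 0 in the other libraries. Whether the fold changes of Cxcl9 and Cxcl10 differ was not tested. Cxcl10 overlaps Art3 on the opposite strand, and the library kit does not mark the strand of a transcript, so their reads may be mixed.

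A cluster of monocyte- and eosinophil-attracting CC ligands on chromosome 11 holds Ccl2, Ccl7, Ccl11, and Ccl12, all of which were tested and had a log2 fold change above 0 (median 0.40), as did 53.5% of all genes. Without RvD1 replicate 1, Ccl2 (−0.071), Ccl7 (−0.038), and Ccl11 (−0.022) were below 0 and Ccl12 alone remained above it. The largest of all was that of Ccl12, which encodes a ligand of CCR2 and lies at 82101845 to 82103400 on the plus strand. Ccl12 had 16, 28, and 12 counts in RvD1 replicates 1, 2, and 3 and 3, 5, and 2 counts in vehicle replicates 1, 2, and 3. These are 0.724, 0.999, and 0.666 CPM against 0.186, 0.287, and 0.109 CPM, with all RvD1 libraries above all vehicle libraries. The log2 fold change was 2.02 with a SE of 0.53 and a 95% interval of 0.83 to 3.22, and edgeR's quasi-likelihood test gave an unadjusted p of 0.00411 (adjusted p 0.971). Leaving out each library in turn gave 1.73 to 2.41 with unadjusted p from 0.00755 to 0.0236. A filter on the mean over all 6 libraries takes no account of group, but Ccl12 passed it, with a mean of 11 counts, through its RvD1 libraries. The unadjusted p of edgeR's test on the same counts was then 0.00424, and this fit does not remove that dependence. The mean TPM of Ccl12 was 2.85 ± 0.539 in RvD1-treated and 0.657 ± 0.300 in vehicle-treated mice (SD, n = 3 each).

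For the more abundant neighbors of Ccl12 the groups overlapped. Ccl2, the main monocyte attractant, was at 10.4, 7.67, and 7.77 CPM with RvD1 and 7.12, 7.36, and 9.83 CPM with vehicle, which differ by 0.09 on the log2 scale with a SE of 0.21. Ccl7, which acts on the same receptor, was at 5.75, 4.25, and 4.83 CPM with RvD1 and 4.34, 4.77, and 4.83 CPM with vehicle. Neither gene set the groups apart, and Ccl7 varied within groups by 11.9%, close to the 10.2% that counting alone gives. Ccl11, the eosinophil attractant eotaxin, was at 3.67 CPM in RvD1 replicate 1 and between 0.760 and 1.55 CPM in the other 5 libraries, with a log2 fold change of 0.71 and a SE of 0.52. Ccl8 had at most 14 counts in a library. Ccl2 overlaps Gm17268 on the opposite strand.

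**Figure D3:**
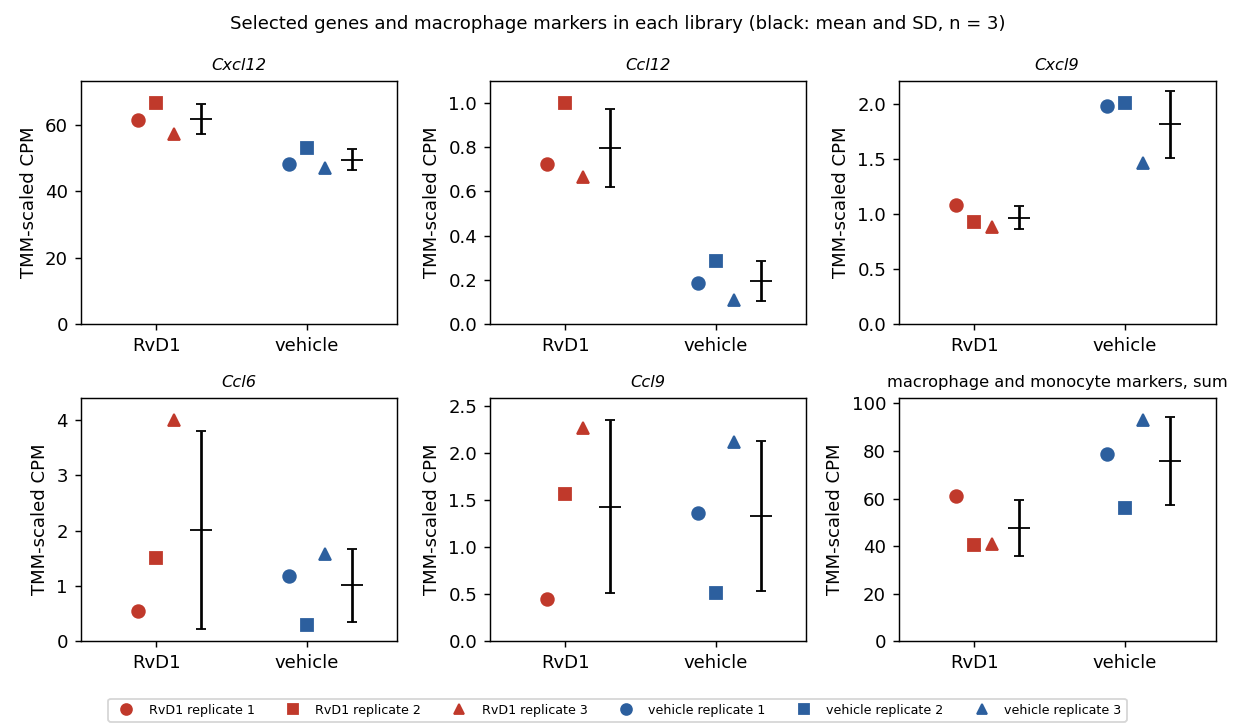
CPM in each library of Cxcl12, Ccl12, Cxcl9, Ccl6, and Ccl9 and the summed CPM of 18 macrophage and monocyte markers, with the mean and SD of 3 mice per group. RvD1 libraries lie above vehicle libraries for Cxcl12 and Ccl12 and below them for Cxcl9, and they overlap for Ccl6, Ccl9, and the marker sum.

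A separate group on chromosome 11 holds the macrophage CC ligands Ccl3, Ccl4, Ccl5, Ccl6, and Ccl9. Ccl6 was at 0.543, 1.5, and 3.99 CPM with RvD1 and 1.18, 0.287, and 1.57 CPM with vehicle, and Ccl9 at 0.453, 1.57, and 2.27 CPM and at 1.36, 0.517, and 2.12 CPM. For both genes RvD1 replicate 1 and vehicle replicate 2 were the low libraries, and vehicle replicate 3 and RvD1 replicate 3 were among the highest. The within-group variation was 88.8% for Ccl6 and 62.3% for Ccl9, where counting alone gives 18.3% and 19.1%. Ccl6 had a log2 fold change of 0.96 with a 95% interval of −0.75 to 2.67, and it ranged from 0.03 without RvD1 replicate 3 to 1.44 without vehicle replicate 3. That of Ccl9 was 0.09 with a SE of 0.64. Ccl4 had 29 counts in RvD1 replicate 3 and 1 to 10 counts elsewhere, Ccl5 had 5 to 20 counts, and Ccl3 had 1 to 10 counts.

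Several of these ligands and most of the receptors are made by leukocytes, so the leukocyte markers are set beside them. Of the 18 macrophage and monocyte markers 16 were tested, and 14 had a fold change below 0 (median −0.38), or 15 of 16 without RvD1 replicate 1 (median −0.57). At an unadjusted p under 0.05 in edgeR there were 4, all lower with RvD1, namely Lyz2 (−1.06), Tyrobp (−1.04), C1qb (−0.73), and Ms4a7 (−1.98), against 1.64% of all genes, and 0 passed the adjusted threshold. Ms4a7 had 11, 16, and 5 counts with RvD1 and 40, 23, and 31 counts with vehicle. It had enough counts for testing through its vehicle libraries, the group in which it was higher. Without RvD1 replicate 1 there were 5 of 16, all lower, against 4.33% of all genes in either direction. Among these, Ms4a7 and Adgre1 needed their vehicle libraries to have enough counts in that fit. In the edgeR fit without a filter on low counts Lyz2 had an adjusted p of 0.0182, against 0.971 in the main edgeR fit. In that fit without a filter 12 of 26641 genes (0.045%) had an adjusted p under 0.05. The groups overlapped in the summed level, where the highest RvD1 library (61.1 CPM) exceeded the lowest vehicle library (55.9 CPM). Neutrophil markers summed to 2.99 to 4.07 CPM with RvD1 and 3.69 to 4.31 CPM with vehicle, and S100a9, Ly6g, Ltf, Ngp, and Retnlg were at 0. Mmp9 held most of that sum with a mean of 68 counts, and the other neutrophil markers averaged 2.5 counts or fewer. Markers of T, NK, and dendritic cells summed to 8.65 to 11.5 CPM and 11.1 to 11.5 CPM, with Cd3d and Nkg7 at 0. Zbtb46 held most of that sum with a mean of 207 counts, and the others on this list averaged 2.67 counts or fewer. Endothelial markers summed to 17.7 to 35.0 CPM with RvD1 and 16.2 to 48.3 CPM with vehicle, and those of pericytes and smooth muscle to 229 to 413 CPM and 240 to 278 CPM. Of the 11 endothelial markers tested, 9 were lower with RvD1 (median −0.92), or 11 of 11 without RvD1 replicate 1 (median −1.16). All 7 pericyte and smooth muscle markers were higher (median 0.45), or 6 of 7 without that library (median 0.31). Of all genes tested, 53.5% were higher. Other markers with an unadjusted p under 0.05 in edgeR were the pericyte genes Abcc9 (0.99) and Pdgfrb (0.66), which were higher with RvD1, and Ly6a (−0.62), the gene of Sca-1, which was lower. Pdgfrb had none under 0.05 without RvD1 replicate 1. Ly6a went against its list, since 8 of the 9 tested fibro-adipogenic markers were higher with RvD1 (median 0.23), and without RvD1 replicate 1 this was 4 of 9 (median −0.16). Fewer leukocytes in a sorted sample and less RNA per leukocyte cannot be told apart in these libraries. Fibro-adipogenic markers summed to 900 to 2150 CPM with RvD1 and 1080 to 1236 CPM with vehicle, more than the macrophage and monocyte markers. The part of cells with any of these markers in Cxcl9, which was lower with RvD1, and in Ccl12, Ccl6, and the receptors was not tested. Nor was it tested for Cxcl12, Cxcl1, Cxcl10, Ccl2, Ccl7, and Ccl11, so their levels cannot be assigned to MuSCs alone.

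Among the membrane-anchored ligands, Cx3cl1 (fractalkine) was at 7.65, 6.92, and 5.88 CPM with RvD1 and 4.65, 6.04, and 5.86 CPM with vehicle. Its 2 highest libraries were of RvD1-treated mice, the groups overlapped, and the log2 fold change was 0.31 with a 95% interval of −0.17 to 0.78. Cxcl16, which binds CXCR6, differed by 0.26 with a SE of 0.37 and overlaps Zmynd15 on the opposite strand.

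Of the remaining CC and XC ligands, Ccl25, the thymus-expressed ligand of CCR9, was at 11.5, 11.8, and 8.65 CPM with RvD1 and 10.8, 9.31, and 7.17 CPM with vehicle. The groups overlapped and the log2 fold change was 0.23 with a 95% interval of −0.24 to 0.71, and Ccl25 overlaps Elavl1 on the opposite strand. Ccl27a, a skin-homing ligand, differed by 0.27 with a SE of 0.36. Ccl19 and Ccl21a, the lymph node ligands of CCR7, were highest in RvD1 replicate 1. Ccl19 had 35.09 estimated counts in RvD1 replicate 1 and 3.9 to 9.72 in the others, and Ccl21a had 65.82 in RvD1 replicate 1, 28.6 in vehicle replicate 1, 4 in RvD1 replicate 3, and 0 in the other 3. For Ccl19 the log2 fold change was 1.09 with a 95% interval of −0.79 to 2.97, and Ccl21a was not tested. Ccl19, Ccl21a, and Ccl27a have near-identical copies on chromosome 4 among which reads can be divided, so their levels are uncertain.

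For several abundant ligands the receptor transcript was close to the limit of detection. Mean levels were 77.5 TPM for Cxcl1 against 0.173 TPM for its receptor Cxcr2, 38.0 TPM for Cxcl10 against 0 TPM for Cxcr3, and 18.1 TPM for Ccl2 against 0.225 TPM for Ccr2. They were 12.8 TPM for Ccl25 against 0.045 TPM for Ccr9 and 3.64 TPM for Cx3cl1 against 0.133 TPM for Cx3cr1. Cxcl12 was paired with abundant receptors, at 36.4 TPM against 22.2 TPM for Cxcr4 and 34.9 TPM for Ackr3. The sort kept cells with CXCR4 on their surface and discarded leukocytes with CD45 or CD11b. Its part in this contrast was not tested, so the contrast cannot be read as a trait of MuSCs.

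**Figure D4:**
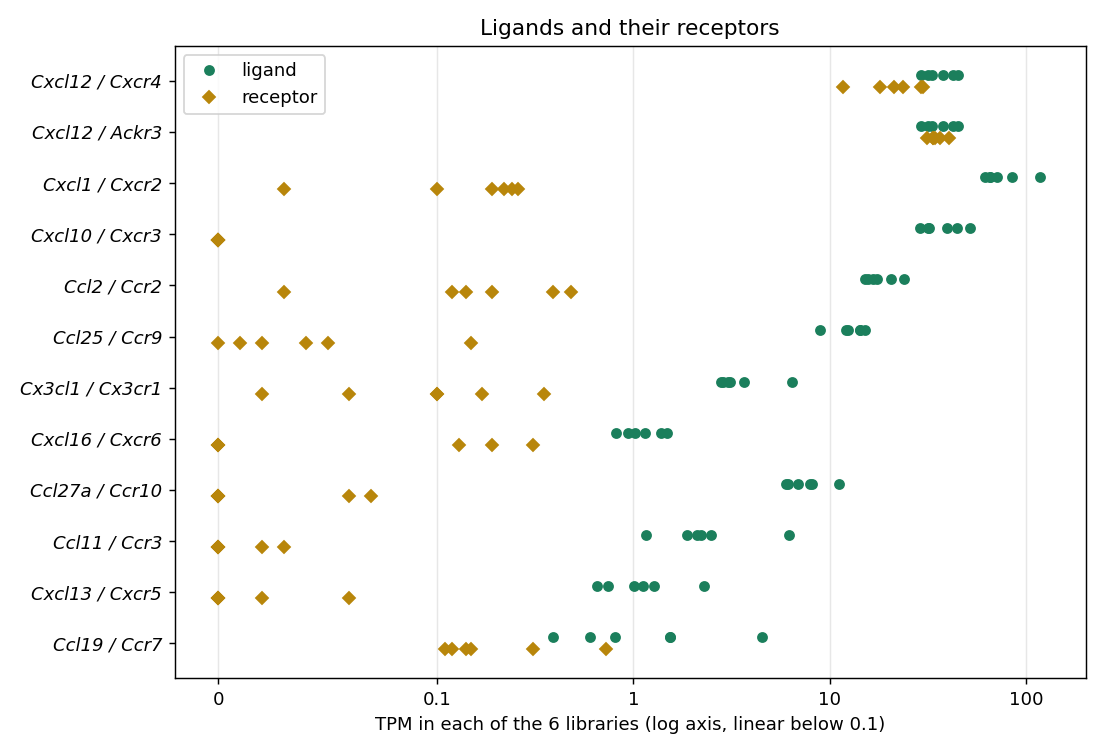
TPM of ligands and of a receptor for each in the 6 libraries, on a log axis that is linear below 0.1 TPM. Cxcl12 and its receptors Cxcr4 and Ackr3 lie at 22.2 to 36.4 TPM on average, while the receptors of the other ligands lie at 0.26 TPM or below. The cells were sorted for CXCR4 and against CD45 and CD11b.

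Ccr4, the receptor of CCL17 and CCL22, was the one signaling receptor besides Cxcr4 with a mean of 10 or more counts. It was at 1.09, 0.999, and 0.444 CPM with RvD1 and 1.18, 0.747, and 1.47 CPM with vehicle, and its log2 fold change was −0.40 with a SE of 0.46. Ccr2, the monocyte receptor of CCL2, CCL7, and CCL12, had 15, 6, and 1 counts with RvD1 and 4, 10, and 16 counts with vehicle. RvD1 replicate 1 was among the highest libraries and RvD1 replicates 2 and 3 were among the lowest, and the log2 fold change was −0.82 with a 95% interval of −2.57 to 0.94. Of the other atypical receptors, Ackr1, Ackr2, and Ackr4 had at most 11 counts in a library.

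The 31 identifiers with a count that were not tested had a median of 2 counts on average over the libraries, and 22 of them had 0 counts in at least 1 library. In CPM the groups were separate for 1 of the 31, namely Cx3cr1, the fractalkine receptor of monocytes and macrophages. It had 4, 1, and 2 counts with RvD1 and 3, 6, and 13 counts with vehicle. The counts themselves overlapped, and the nearest libraries of the groups were at 0.181 CPM with RvD1 and 0.186 CPM with vehicle. The share was 9.62% over the tested genes, which had to reach a minimum count. Groups that both hold a library at 0 cannot be separate, so the shares are not directly comparable.

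Ccl24, an eosinophil attractant, had 0 counts in all RvD1 libraries and 3, 5, and 0 counts with vehicle, and its unadjusted p was 0.021 in an edgeR fit without a filter on low counts (adjusted p 0.885, with 4.29% of 26641 genes at an unadjusted p under 0.05). Xcr1, the XCL1 receptor of dendritic cells, had 3 to 15 counts. The SE of the log2 fold change was 0.78 for Ccr2, the tested gene with the fewest counts, whose level varied within groups by 72.2% where counting alone gives 34.0%.

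Genes that act around chemokines were measured as well. Of 22 tested genes of the signaling path behind the receptors, 12 were higher and 10 lower with RvD1 (median log2 fold change 0.03, and 12 of 24 higher without RvD1 replicate 1), and Cdc42, a small GTPase of cell migration, was the most abundant. Of 13 that cleave or display chemokines, such as proteases and heparan sulfate proteoglycans, 12 were higher and 1 was lower (median 0.08), against 53.5% of all genes higher, and Sdc2, a syndecan, was the most abundant. Without RvD1 replicate 1, 10 were higher and 3 lower (median 0.033), and that library held the highest level of Mmp2 (150 CPM against 41.5 to 71.95 CPM), Mmp14 (186 CPM against 85.7 to 108 CPM), and Dpp4 (3.94 CPM against 0.575 to 1.28 CPM), chosen after their values were seen. Of 5 tested chemokines and receptors whose symbols follow no Ccl or Cxcl pattern, 1 was higher and 4 were lower (median −0.12), with Mif, a ligand of CXCR2 and CXCR4, the most abundant at a log2 fold change of −0.12. In edgeR's test 0 genes of these lists passed the adjusted threshold and 0 had an unadjusted p under 0.05. Without RvD1 replicate 1, Cd74 and Dock2, which were lower, and Gnai1, which was higher, had one, against 4.33% of all genes. Dock2, with 8, 5, and 3 counts with RvD1 and 35, 1, and 17 with vehicle, was not tested in the main fit. In the fit without that library, Cd74 and Dock2 needed vehicle libraries, the group in which they were higher, to have enough counts.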

How the data were processed

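RNA-Seq of sorted MuSCs of 3 RvD1-treated and 3 vehicle-treated mice was analyzed. The authors aligned 76-bp single-end reads to mm10 with STAR 2.5.0a and counted them with RSEM. Expected counts as made by the authors are not scaled for depth, and RSEM divides among genes any reads that match more than 1. For the TPM values, the authors also divided by transcript length and set the libraries to equal totals, and the deposited FPKM values were not used. RNA input was 10 ng in the study's methods and 1 ng in the sample labels, which also list CD31 among the discarded surface markers. Total expected counts were 16148026 to 28149176 per library, without molecular identifiers.

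Expected counts were rounded and tested with edgeR 4.0.16 in R 4.3.3 (TMM, filterByExpr by group, quasi-likelihood test, Benjamini-Hochberg adjustment over 14494 genes). A stray header line was dropped. SEs were derived from the fold change and the F statistic, CPM values use TMM factors, and within-group variation is the SD over the mean. limma 3.58.1, sva 3.50.0, and DESeq2 1.42.0 served for alternatives, among them other filters and factors, TPM with a pseudocount of 1 or 0.1, a replicate block, the study's removal of surrogate variables, and each library left out in turn. List counts without RvD1 replicate 1 were added after seeing the data. The tests were tried on simulated data.

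The genes and lists were chosen with earlier results of these data known. Named were the tested genes whose mean reached 10 counts, the 3 with the highest mean below 10, any other with an unadjusted p under 0.05 without a count filter, from the pathway lists the most abundant gene, and from all lists those with an unadjusted p under 0.05. Other genes near the limit of detection were named after their values were seen. Positions come from GENCODE M21 (GRCm38).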

Additional observations from a re-analysis of the deposited data

How the results depend on the processing

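No gene of the set passed the adjusted threshold under any alternative, and the smallest adjusted p was 0.172, for Ccl12 in limma-voom with 1 surrogate variable removed. In that fit 9 of 54 genes had an unadjusted p under 0.05, against 11.2% of all 26518 genes, their median log2 fold change was 0.039, and Ackr3 was at 0.015. Between 1 gene (without vehicle replicate 1) and 5 genes (without RvD1 replicate 1) had an unadjusted p under 0.05 when a library was left out, and the median then lay between 0.0016 (without RvD1 replicate 1) and 0.30 (without vehicle replicate 3). Cxcl9 had an unadjusted p above 0.05 without RvD1 replicate 2 or 3 or vehicle replicate 1 or 2, and Cxcl12 without RvD1 replicate 2 or vehicle replicate 1 or 3. The sign depended on the library left out for Ackr3 (−0.087 to 0.033), Cxcl1 (−0.095 to 0.37), Cxcl10 (−0.29 to 0.12), Cxcr4 (−0.49 to 0.070), Ccl2 (−0.071 to 0.25), Ccl7 (−0.038 to 0.19), Ccl27a (−0.10 to 0.52), Ccl11 (−0.022 to 1.00), and Ccl9 (−0.38 to 0.60). With TPM and a pseudocount of 1 or 0.1, Ackr3 (0.090 and 0.092), Cxcl10 (0.022 and 0.022), Ccl9 (−0.13 and −0.25), and Ccr4 (0.15 and 0.29) changed sign, and Cxcl13 took the place of Cxcl9 among the genes with an unadjusted p under 0.05. The cause was not tested. With a replicate block, 3 of 23 genes had an unadjusted p under 0.05 and 0 an adjusted one, while the count over all genes was 896. Deviations of same-numbered libraries correlated at 0.374, 0.0111, and 0.184, and those of differently numbered ones at −0.310 to 0.217. Neither the labels nor the methods say that mice were paired, so the main fit used no block. Counts of 3 or fewer limit what can be said of most receptors.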
